A study of Mus musculus with 4 samples.

Results

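Firre is a long non-coding RNA gene on the mouse X chromosome, and the contacts between chromosomes that it has been reported to make were examined here in Hi-C data, together with the genes reported as its partners. The 6 genes followed were Firre, which the annotation lists as 6720401G13Rik, and its autosomal partners Slc25a12, Ypel4, Eef1a1, Atf4 and Ppp1r10, out of 37310 genes in the annotation. Firre was represented by the 3 bins of 40 kb that overlap its deleted interval, and each partner by its gene body with 200 kb on each side, which gave 58 bins, out of 66382 bins in all. The rule that chose these members, genes named in earlier reports on Firre, uses no value of the matrices.

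Firre RNA stays in the nucleus near the site where it is made, carries a repeated RNA domain that binds the nuclear matrix factor hnRNPU, and its gene holds many sites for CTCF, a DNA-binding protein that shapes chromatin loops and domains. The RNA has been described as sitting close to genes on other chromosomes, so that the Firre gene and these loci would be found near each other in the nucleus. In Hi-C, nearby pieces of crosslinked DNA are cut, joined and sequenced as read pairs, and a contact between chromosomes is a read pair whose ends lie on 2 chromosomes.

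The samples were male mouse embryonic stem cells (mESCs), either wild type (WT) or with genotype Firre KO, with 2 libraries in each group, cut with HindIII. By the study's methods the libraries of a group were technical duplicates, and they were combined in 1 matrix per group, so no value has a replicate check, no significance test was possible, and all 95% intervals cover counting error only. The methods describe the WT cells as the N3 line in 2i medium and the Firre KO cells in 2i medium on irradiated feeder fibroblasts that were later depleted, whereas a sentence of the study's results places both on feeders. A figure legend of the study gives the same culture as the methods, with feeders for the Firre KO cells only. By both, genotype and culture differed together and cannot be told apart. Cell line cannot be told apart from genotype either, since the N3 line is named for WT only. The WT matrix held 65611035 read pairs, 16.1% of them between chromosomes, and the matrix labelled Firre KO, from here on the KO-labelled matrix, held 46635652 with 35.6% between chromosomes.

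In the mm9 genome, Firre (ENSMUSG00000085396.1, minus strand) lies at chrX:47908921-47988498. Of its bins, chrX:47880001-47920000 (bin 1) is deleted to 28.8%, chrX:47920001-47960000 (bin 2) wholly and chrX:47960001-48000000 (bin 3) to 75.7% in the Firre KO design. The locus holds local repeats, which bear on how reads can be placed in it. Inside the deleted interval, 12.3% of 50-base words were repeated. The sequence below, read on the strand of Firre, is shown because its exact copies mark how 1 such repeat falls on the bins. It is the stretch of at least 50 bases with the most exact copies inside the deleted interval, it has 53 bases, and no part is set in capitals because all copies share it whole.
Firre repeat: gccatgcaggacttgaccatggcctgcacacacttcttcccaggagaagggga
It occurred 9 times, always on the strand of Firre, and the 9 copies in the interval were all the exact copies in the mm9 genome. Bin 1 held 1 copy, bin 2 held 7 and bin 3 held 1. The first copy, chrX:47917999-47918051, and the last, chrX:47968547-47968599, lay within annotated exons of Firre, and the other 7 did not. Starts of neighbouring copies were 2610 to 14058 bases apart.

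Over whole bins, 20.02% of the 50-base words of bin 1, 18.8% of bin 2 and 9.51% of bin 3 had another exact copy in the genome. Of all 50-base words of each bin, 17.8%, 1.72% and 2.27% had an exact copy on an autosome. The bins held 12, 19 and 16 HindIII sites (AAGCTT), against a median of 13 over the 3408 X bins kept in WT. The letters AGNGGGCGC, a short core of the CTCF motif, were searched on both strands and had no match in any of the 3 bins, while 11.1% of X bins and 19.8% of autosomal bins held at least 1. This says only that these exact letters are absent from the window.

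The locus labelled as deleted was examined first. In WT, bins 1, 2 and 3 held 1025, 1782 and 1391 read pairs of every kind, and in the KO-labelled matrix they held 1035, 2011 and 1481. By this total, bin 2 ranked 38 from the top of 3408 kept X bins in WT and 32 from the top of 3640 in the KO-labelled matrix. The nearest flanking bins, outside the deletion, held 337 and 492 in WT and 437 and 535 in the KO-labelled matrix. All 3 bins were therefore kept and covered in both matrices, bin 2 included, so the KO-labelled matrix did not show the loss of the locus. The cause was not tested. Where bin 2 is called wholly deleted below, this refers to the design only. Directions below follow the label of the matrix, not cells known to lack the locus.

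Read pairs of Firre with autosomes were compared next. Bin 2, wholly deleted by design only, stood low among comparable X bins in WT and high in the KO-labelled matrix. In WT, bins 1, 2 and 3 had 158, 231 and 235 read pairs with autosomes, which were 15.4%, 12.96% and 16.9% of their read pairs. In the KO-labelled matrix they had 382, 867 and 624, or 36.9%, 43.1% and 42.1%. As the plot of read pairs with autosomes along the locus shows, bins 2 and 3 stood above all 24 flanking bins in both matrices. The flanking bins had at most 189 such read pairs in WT and 479 in the KO-labelled matrix. By the share of read pairs with autosomes, bin 2 ranked 26 from the top of these 27 bins in WT and 3 from the top in the KO-labelled matrix.

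**Figure D1:**
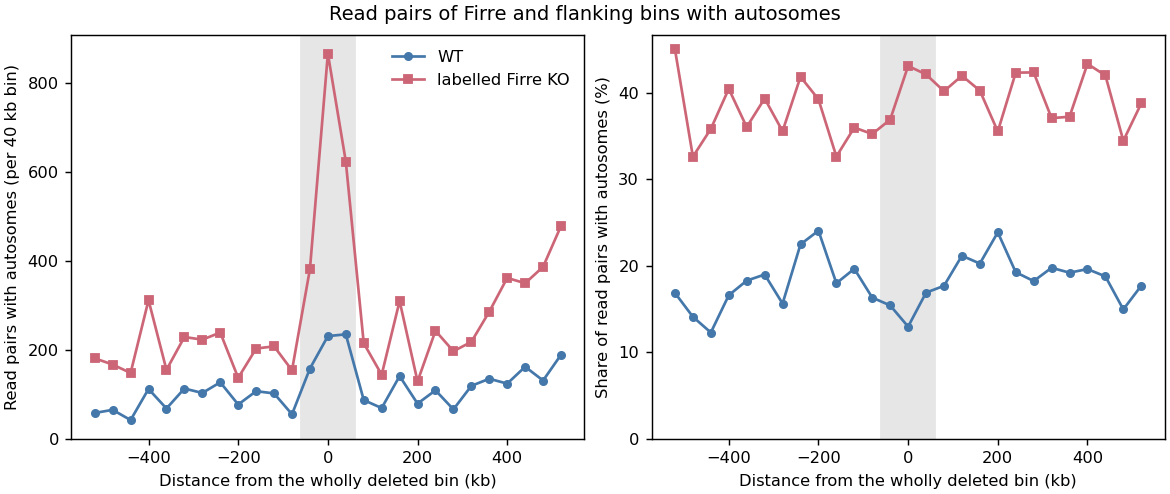
Read pairs with autosomes per 40 kb bin (left) and their share of all read pairs of the bin in percent (right), against the distance in kb from the wholly deleted bin, for WT (blue circles) and the KO-labelled matrix (red squares), with the Firre bins shaded. This bin, deleted by design but covered in both matrices, reached 867 read pairs in the KO-labelled matrix against 231 in WT.

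X bins of like total, at least 1 Mb from the deletion and within 10% of the read pairs of the Firre bin in the same matrix, served as the comparison. For bin 2 in WT, the 34 like bins had a median of 288.5 read pairs with autosomes and a range of 191 to 439, and Firre had 0.801 times the median (95% interval 0.701 to 0.911). Of these 34 bins, 33 were as high as Firre or higher. In the KO-labelled matrix the 32 like bins had a median of 719 and a range of 571 to 1250, Firre had 1.21 times the median (1.13 to 1.29), and 4 of the 32 were as high. Bin 1 had 0.883 times (0.750 to 1.03) and 0.957 times (0.864 to 1.06) the median of its like bins in WT and in the KO-labelled matrix. Bin 3 had 0.955 times (0.837 to 1.09) and 1.12 times (1.03 to 1.21). On the corrected scale, where each bin is brought to the same total, bin 2 had 0.651 times the median of its like bins in WT and 1.08 times in the KO-labelled matrix, so the excess there was mostly lost and the low value in WT was not. Beside this result, no like bin in WT and 3 of 32 in the KO-labelled matrix had as many 50-base words with another copy as bin 2. For words with a copy on an autosome, 27 of 34 in WT and 23 of 32 in the KO-labelled matrix had as many. The part of repeated sequence in the result was not tested.

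Set as a ratio of the matrices, the read pairs of bin 2 with other chromosomes, Y and mitochondrial DNA included, numbered 232 in WT and 867 in the KO-labelled matrix, a ratio of 3.74. The 34 X bins of like WT total had ratios from 1.57 to 2.97 with a median of 2.23, so that bin 2 had 1.68 times (1.45 to 1.95) their median and none was as high. Over the whole X chromosome 5.26% of 3406 bins had a ratio as high as bin 2. Bin 1 had 1.02 times (0.844 to 1.23), bin 3 had 1.195 times (1.03 to 1.39) and the 3 bins together 1.30 times (1.19 to 1.43) the median of their like bins. Of these like bins, 113 of 247, 31 of 121 and 36 of 402 had a ratio as high. Over the whole X chromosome, 59.2%, 42.0% and 23.8% of bins did. The 402 like bins include the 247 of bin 1, so their median weights the bins unlike Firre does. In a comparison added after these values were seen, 10 X bins with at least 10% of 50-base words repeated and at most 5% with an autosomal copy, and with no fewer WT read pairs than the median X bin, had a median ratio of 2.35 and a highest ratio of 3.34. The part of repeated sequence in the ratio of bin 2 was not tested.

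Other loci of the X chromosome were placed beside Firre. The ratio of the matrices for read pairs with other chromosomes was 3.08 (2.73 to 3.49) at Dxz4, a tandem repeat locus annotated as 4933407K13Rik, where 34.7% of 50-base words had another copy. It was 2.96 (2.47 to 3.56) at Jpx and 2.74 (2.48 to 3.03) at Ftx, non-coding RNA genes beside Xist. Xist, the RNA that silences the inactive X chromosome, had 1.73 (1.46 to 2.05), and the genes Hprt (purine salvage) and Pgk1 (glycolysis) had 1.87 and 2.33. The interval of Firre over its 3 bins, 2.73 to 3.28 around 2.99, overlapped those of Dxz4, Jpx and Ftx and also reached that of Pgk1 (1.96 to 2.78), but lay above those of Xist and Hprt.

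**Figure D2:**
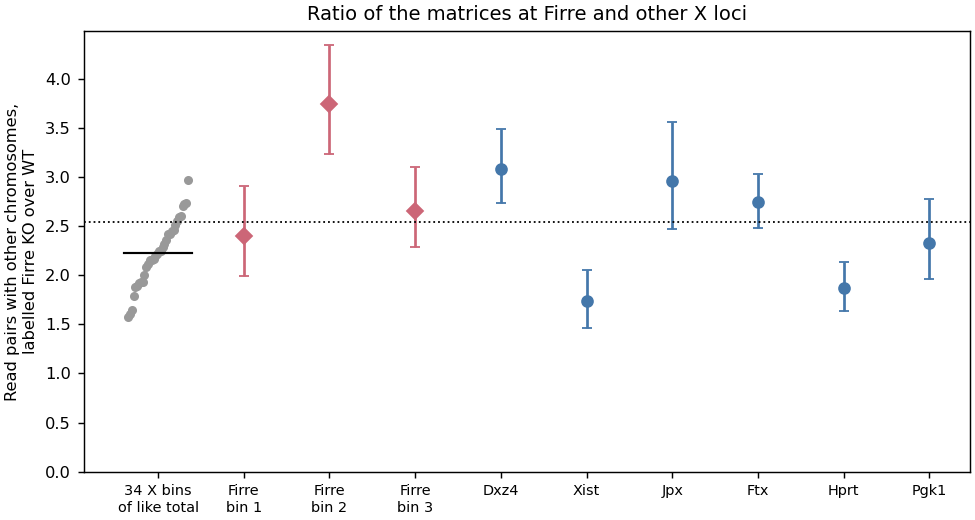
Read pairs with other chromosomes in the KO-labelled matrix over those in WT, for the 34 X bins of like WT total (grey points, line at their median), the 3 Firre bins (red diamonds) and 6 other X loci (blue circles), with 95% counting intervals and a dotted line at the median of 3406 X bins, 2.54. Bin 2 of Firre, at 3.74, lies above every like bin, of which the highest had 2.97.

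Contacts of Firre with its partner genes were then counted directly. They were too few to show or to exclude a preference for these genes. The partner windows were Slc25a12 (a mitochondrial aspartate and glutamate carrier, chr2:71109120-71205806), Ypel4 (of the Yippee-like family, chr2:84574215-84578812), Eef1a1 (a translation elongation factor, chr9:78326256-78336958), Atf4 (a transcription factor of the stress response, chr15:80085614-80087970) and Ppp1r10 (a nuclear regulator of protein phosphatase 1, chr17:36053379-36069226). In WT the 3 Firre bins shared 0, 0, 1, 1 and 0 read pairs with these windows, in that order. The corresponding counts of the KO-labelled matrix were 1, 1, 2, 0 and 2. No window thus had more than 2 read pairs with Firre in either matrix.

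The number expected, from the share of autosomal read pairs that other X bins have in the same windows, was 0.846 for the 5 windows together in WT and 2.04 in the KO-labelled matrix. Observed over expected was 2.37 (0.286 to 8.54) for the 2 read pairs in WT and 2.94 (1.08 to 6.39) for the 6 in the KO-labelled matrix. The interval of the second was above 1 by this expectation but held 1 with the expectation taken from X bins of like total, 2.67 (0.980 to 5.81), or from X bins in the active compartment A, a setting added after the values were seen, 2.37 (0.871 to 5.17). Both intervals of the main setting overlapped. The difference between the matrices was not tested, and at this depth nothing is read from it. The higher value was that of the KO-labelled matrix, in which bin 2, wholly deleted by design, was covered with 2011 read pairs. By the same measure, the X locus Hprt had 4.18 (0.506 to 15.1) in WT and 4.17 (0.861 to 12.2) in the KO-labelled matrix. Ftx had 2.74 (0.332 to 9.91) in WT and 0.0 in the KO-labelled matrix. Dxz4, Xist, Jpx and Pgk1 had 0 read pairs with the partner windows in WT and at most 1 in the KO-labelled matrix.

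At a fold of 1.5 over expected, 2 of 5 partner windows were called in WT, where 10.7% of 5389 autosomal windows of 11 bins were called, and 4 of 5 in the KO-labelled matrix, where 28.4% of 5368 were. A call at this fold meant a single read pair, because the median window expected 0.114 read pairs with Firre in WT and 0.341 in the KO-labelled matrix, and 89.3% and 71.5% of windows had none. The window of Slc25a12 has 14 bins and is thus wider than those it is read against.

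The read pairs themselves lay away from the genes. In WT, bin 1 of Firre met chr9:78400001-78440000, 63043 bases from Eef1a1, and bin 3 met chr15:80240001-80280000, 152031 bases from Atf4. Of the 6 read pairs in the KO-labelled matrix, the nearest was that of bin 3 with chr9:78280001-78320000, 6256 bases from Eef1a1, and the next that of bin 2 with chr2:84600001-84640000, 21189 bases from Ypel4. The other 4 were 86256 to 189120 bases from their gene. No read pair joined a Firre bin with a bin that overlaps a partner gene body, where 0.135 were expected in WT and 0.271 in the KO-labelled matrix. The exact interval of a count of 0 reached 27.3 times the expected number in WT and 13.6 times in the KO-labelled matrix. The limit of 3 read pairs that a count of 0 allows when only an upper bound is set came to 22.2 and 11.1 times.

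Bin by bin, bin 2 of Firre had 0 read pairs with the partner windows in WT and 4 in the KO-labelled matrix. The 34 like bins in WT had a median of 0 and a highest count of 2. The 32 like bins in the KO-labelled matrix had a median of 1, a mean of 0.969 and a highest count of 3, so none had 4. Bin 2 also had 1.21 times their median of autosomal read pairs there.

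**Figure D3:**
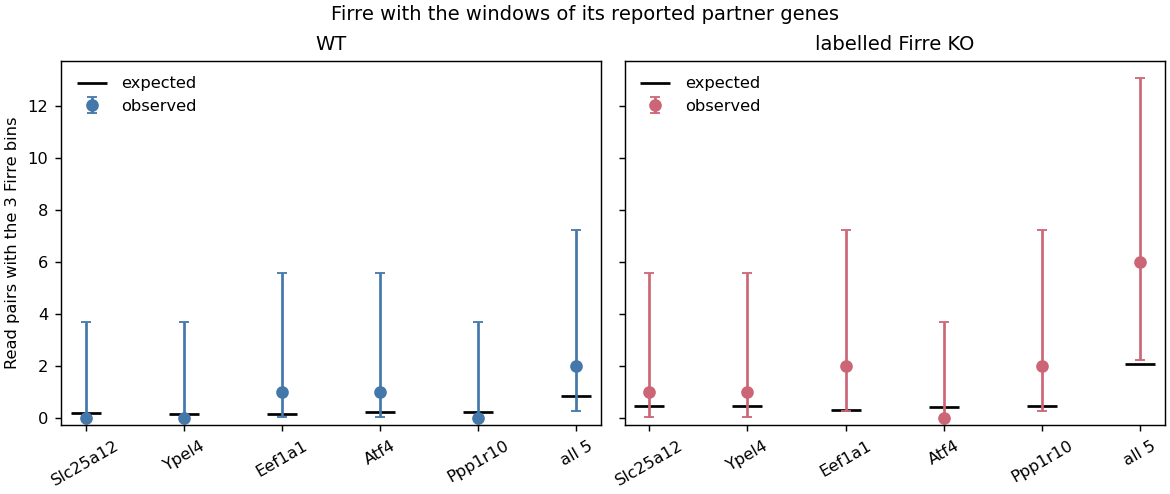
Read pairs between the 3 Firre bins and each partner window (points, with exact 95% Poisson intervals) and the number expected from other X bins (black dashes), in WT (left) and in the KO-labelled matrix (right). Single windows had 0 to 2 read pairs, and the 5 together had 2 in WT and 6 in the KO-labelled matrix.

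Wider windows gave more read pairs and values nearer to 1. With 1 Mb around the partners and the same Firre bins, observed over expected was 0.933 (0.192 to 2.73) in WT, for 3 read pairs. In the KO-labelled matrix it was 2.01 (1.17 to 3.22), for 17, with an interval above 1. The expectations from X bins of like total or in compartment A were not taken at this scale. With 200 kb around Firre and the partner windows, it was 2.34 (0.760 to 5.46) and 2.14 (0.979 to 4.06). Eef1a1 alone had 8.29 (1.71 to 24.2) in WT and 4.80 (0.989 to 14.0) in the KO-labelled matrix at this scale, for 3 read pairs in each. At every other scale its intervals held 1. With 1 Mb around both, Eef1a1 had 0.787 (0.21 to 2.02) in WT and 1.03 (0.534 to 1.80) in the KO-labelled matrix. The intervals of the other partners held 1 in both matrices. With 1 Mb around both, 25 read pairs in WT gave 0.873 (0.565 to 1.29) and 76 in the KO-labelled matrix gave 1.14 (0.901 to 1.43). Among 68 windows of this size along the X chromosome, the Firre window ranked 48 from the top in WT, where values ran from 0.413 to 1.34, and 14 from the top in the KO-labelled matrix, where they ran from 0.671 to 1.43. At this scale, the window of 53 bins around Firre, of which 3 are Firre bins, was not set apart from other X windows in either matrix. The 3 Firre bins by themselves were not ranked in this way.

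**Figure D4:**
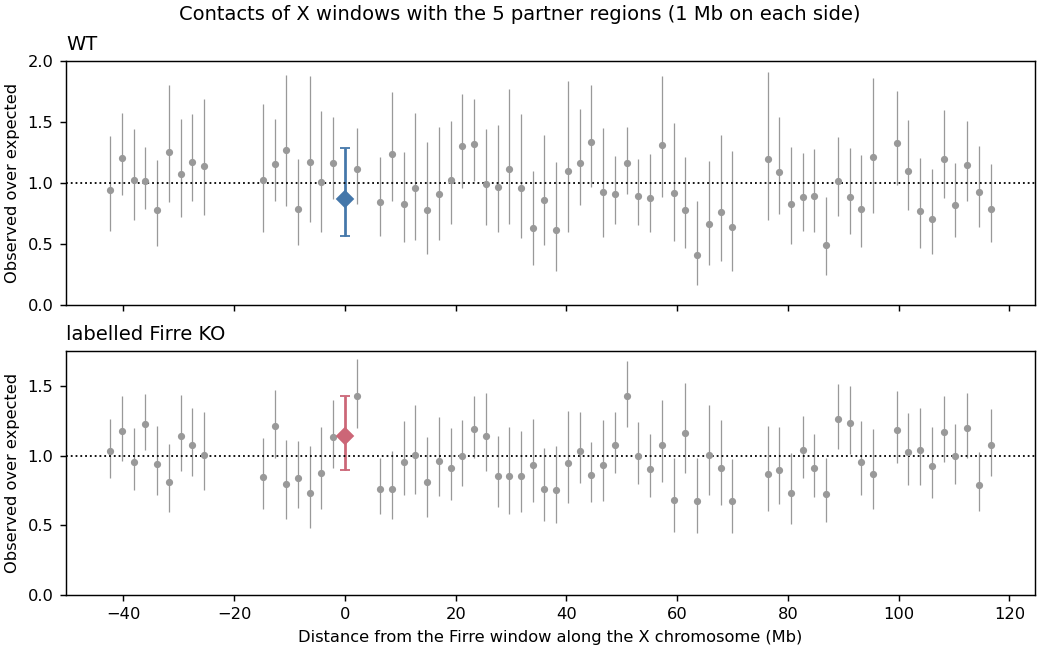
Observed over expected contacts of 68 X chromosome windows with the 5 partner regions, each with 1 Mb on each side, against the distance in Mb from the Firre window, in WT (top) and the KO-labelled matrix (bottom), with 95% counting intervals. The Firre window (coloured diamond), at 0.873 and 1.14, lies inside the range of the other windows (grey) in both.

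The partner windows were also examined by themselves, since they have contacts of their own. In WT, 10 to 14 of their bins lay in compartment A, the active part of the genome as the first eigenvector at 200 kb separates it, except 7 of 11 for Eef1a1, and in the KO-labelled matrix all bins of the 5 windows did. They held 9 to 25 protein-coding genes each, and in Ppp1r10 and Eef1a1 17.3% and 13.7% of 50-base words had another copy. Their read pairs with other chromosomes were 5729 for Slc25a12, 3753 for Ypel4, 4463 for Eef1a1, 9416 for Atf4 and 4984 for Ppp1r10 in WT. They numbered 9600, 8406, 8194, 11887 and 9114 in the KO-labelled matrix.

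Relative to the median ratio of 5368 autosomal windows, 1.62, the ratio of the matrices was 1.39 (1.33 to 1.44) at Ypel4 and 0.782 (0.761 to 0.803) at Atf4, the highest and lowest of the members. The window of Atf4 had the largest share of read pairs with other chromosomes in WT, 23.1% against 18.96% for its chromosome, and Ypel4 the smallest, 10.5% against 14.7%. Slc25a12 had 1.04, Eef1a1 1.14 and Ppp1r10 1.13 times the median ratio. None of the 5 passed a fold of 1.5 in either direction, which 2.76% of all windows did, and all lay within the central 95% of windows, 0.712 to 1.44.

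With the X chromosome as a whole, the partner windows had 101, 91, 91, 126 and 122 read pairs in WT, in the order Slc25a12, Ypel4, Eef1a1, Atf4 and Ppp1r10, and 231, 236, 162, 225 and 226 in the KO-labelled matrix. Against the number expected from their autosomal read pairs and the share of the X chromosome on the same autosome, the 5 together had 1.01 (0.922 to 1.10) in WT and 0.737 (0.693 to 0.782) in the KO-labelled matrix. In WT, Ppp1r10 was highest with 1.32 (1.10 to 1.58) and Atf4 lowest with 0.778 (0.648 to 0.927). In the KO-labelled matrix, Atf4 with 0.620 (0.541 to 0.706) and Eef1a1 with 0.649 (0.553 to 0.757) were lowest, and Ypel4 with 0.882 (0.773 to 1.00) was highest. No partner window reached 1.5 times the expected number in either matrix, where 5.49% of windows did in WT and 6.41% in the KO-labelled matrix. At or below 1/1.5 times there were 0 of 5 in WT, against 0.946% of all windows, and 2 of 5 in the KO-labelled matrix, Eef1a1 and Atf4, against 5.63%.

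Compartment moved with these values. Autosomal windows with all bins in compartment A had a median observed over expected value with X of 0.878 (WT) and 0.792 (KO-labelled matrix), and windows with no bin in A had 1.21 and 1.30. The partner windows in the KO-labelled matrix, 0.620 to 0.882, lay within the central 95% of the windows in A, 0.554 to 1.08. In WT, Ppp1r10 alone was above that range, at 1.32 against an upper end of 1.18. The part of compartment in the lower values of the KO-labelled matrix was not tested further.

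Contacts among the partners on different chromosomes were counted over 9 pairs of windows. The 9 pairs had 15 read pairs in WT against 13.8 expected from the totals of the windows, 1.09 (0.610 to 1.80), and 34 in the KO-labelled matrix against 24.3 expected, 1.40 (0.971 to 1.96). Slc25a12 with Atf4 had 5 read pairs in WT, as many as Atf4 with Ppp1r10 and more than any other pair, and 8 in the KO-labelled matrix, the most there. Its values were 1.95 (0.634 to 4.56) and 2.33 (1.01 to 4.59). With 1 Mb on each side, the sums were 1.00 (0.869 to 1.15) and 1.24 (1.13 to 1.36), but single pairs lay on both sides of 1. Slc25a12 with Atf4 had 1.45 (1.10 to 1.88) and 1.73 (1.40 to 2.12), and Ypel4 with Atf4 had 0.542 (0.260 to 0.996) and 0.553 (0.338 to 0.854). Ypel4 with Eef1a1 was also below 1 in the KO-labelled matrix, at 0.569 (0.311 to 0.954), while Eef1a1 with Atf4, Slc25a12 with Eef1a1 and Atf4 with Ppp1r10 were above it, at 1.72 (1.37 to 2.13), 1.48 (1.12 to 1.93) and 1.40 (1.10 to 1.76). With the expectation taken from the same pair of chromosomes, added later, the sum in the KO-labelled matrix was 1.10 (0.997 to 1.204), and its interval then held 1. Slc25a12 and Ypel4, both on chromosome 2 with 12.9 Mb between their windows, shared 87 and 35 read pairs, with observed over expected values at that distance of 1.24 (0.991 to 1.53) and 1.10 (0.765 to 1.53).

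Last, all autosomal contacts of Firre were described. They were spread thinly over the genome. In WT the 624 read pairs fell in 619 of 59240 kept autosomal bins, 614 of which were met once and 5 by 2 read pairs. The 1873 read pairs of the KO-labelled matrix fell in 1818 of 58967 bins, with 42 bins met by 2 read pairs, 3 by 3 and 1 by 8. The bins met most in WT, all with 2 read pairs, held Klf3 (a transcription factor), Fam71f1 and Fam71f2, Sec24a (of the vesicle coat COPII), Wars (tryptophanyl-tRNA synthetase) with Wdr25, and in 1 case no protein-coding gene. The bin chr11:3040001-3080000, in Sfi1 (a centrosome protein), had 8 read pairs in the KO-labelled matrix against 2.63 expected, and the neighbouring bin, also in Sfi1, had 3 against 1.93. Both bins lie at the start of the sequence of chromosome 11 and had 36576 and 26706 read pairs with other chromosomes in all. How many loci these read pairs came from was not counted, and repeated sequence was not measured in these bins. The bin with Capn8 (a calpain protease) had 3. These bins were chosen by these counts and carry no test.

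By autosome, no chromosome departed from the expected number by a fold of 1.5 in either direction, 0 of 19 or 0.0% in each matrix. In WT values ran from 0.694 (0.435 to 1.05) on chromosome 10 to 1.36 on chromosomes 7 (1.00 to 1.79) and 18 (0.927 to 1.91). The range in the KO-labelled matrix was from 0.863 (0.699 to 1.05) on chromosome 4 to 1.16 (0.960 to 1.40) on chromosome 10. The autosomes that hold the partners had 1.15, 0.991, 0.783 and 1.03 in WT for chromosomes 2, 9, 15 and 17, and 0.956, 0.978, 1.02 and 0.911 in the KO-labelled matrix. The intervals of all of these held 1.

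**Figure D5:**
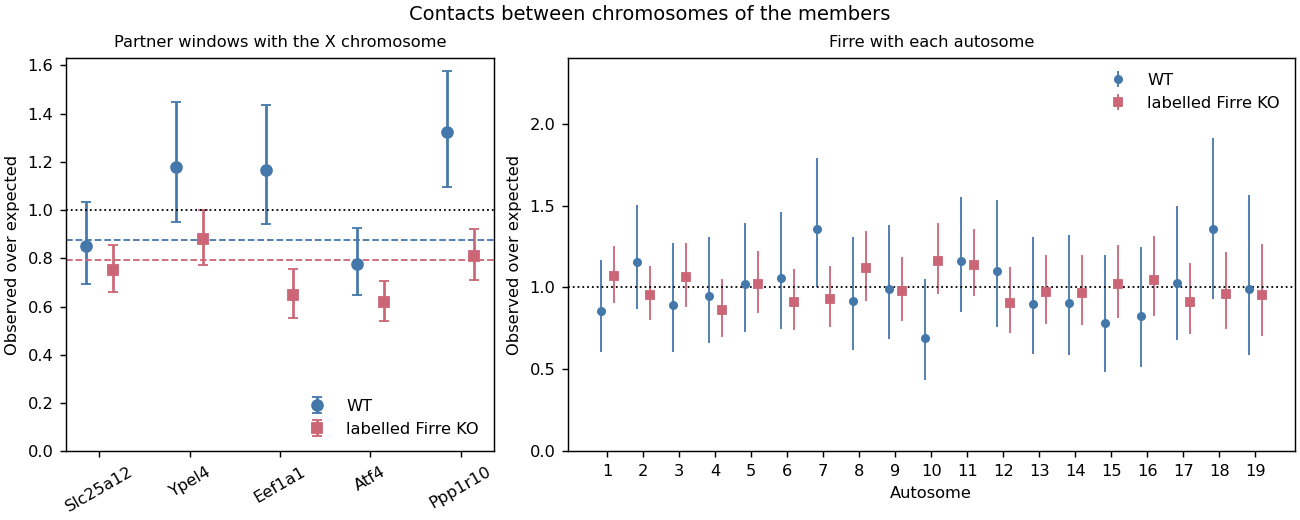
Observed over expected contacts of each partner window with the X chromosome (left) and of the 3 Firre bins with each autosome (right), for WT (blue circles) and the KO-labelled matrix (red squares), with 95% counting intervals and dashed lines at the median of windows in compartment A, 0.878 and 0.792. The partner windows were lower in the KO-labelled matrix, and no autosome stood out by 1.5 times.

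The kinds of autosomal chromatin that Firre met were compared with those met by like X bins, bin by bin. In WT, bin 1 had a smaller share of its autosomal read pairs in compartment A than its like bins, 48.7% (41.1% to 56.5%) against a median of 58.1%, a difference of -9.37 percentage points (-17.0 to -1.64), and 207 of its 247 like bins had a share as high or higher. The intervals of the differences of bin 2, -3.37 points (-9.80 to 2.69), and bin 3, 2.71 points (-3.48 to 8.31), held 0. Bin 3 had the highest share of the locus, 68.5% (62.3% to 74.1%), and its like bins had a higher median, 65.8%, than those of bin 1. In the KO-labelled matrix the differences were 1.48 points (-3.52 to 6.49) for bin 1, -0.90 (-4.23 to 2.38) for bin 2 and -1.36 (-5.28 to 2.52) for bin 3, and all these intervals held 0. In gene-dense bins the differences ran from -7.00 points (-13.9 to 0.693), for bin 1, to 4.24 (-2.14 to 10.6), for bin 2, in WT. They ran from -1.92 (-5.69 to 1.97) to 0.310 (-2.92 to 3.62) in the KO-labelled matrix, and each of these intervals held 0.

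Over all 3 bins, 60.8% (56.9% to 64.6%) of the autosomal read pairs of Firre lay in compartment A in WT, against a median of 61.1% over 402 like bins. In the KO-labelled matrix the share was 53.9% (51.7% to 56.2%) against 51.4% over 465 like bins, a difference of 2.52 percentage points (0.256 to 4.77). These medians weight the bins unlike Firre does, since 299 of the 465 like bins were those of bin 1, which gave 380 of the 1869 read pairs, so nothing is read from the pooled differences. In gene-dense bins the shares were 43.9% (40.1% to 47.8%) against 42.7% in WT and 39.8% (37.6% to 42.0%) against 39.4% in the KO-labelled matrix. Compartment A held 43.3% of autosomal bins in WT and 42.5% in the KO-labelled matrix, and gene-dense bins 32.2% in both.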

How the data were processed

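Per the labels and methods, the authors pooled both libraries of a group, mapped them to mm9, and filtered, binned and iteratively corrected the read pairs at 40 kb with HiC-Pro 2.7.8. They deposited, for every bin pair, a corrected contact signal whose sum is equal over all bins that were kept. Behind every entry stand whole read pairs, multiplied by 1 weight for either bin. Fitting these weights gave back the read pairs, with 100% of entries within 0.05 of a whole number. The recovery and the observed over expected values were tested on simulated data with more X bins as the source and a higher density than here. That test does not cover counts as low as those of Firre with its partners. Chromosome lengths equalled those of the mm9 reference, and genes came from its GENCODE annotation.

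Groups were taken from the labels. Intervals are exact Poisson, conditional binomial (ratios of read pairs) or Wilson (shares) at 95%. They cover counting error alone, because each group is 1 pooled matrix. Without molecular identifiers reads can also repeat a molecule, which these intervals do not cover. Expected numbers for contacts of Firre and of other X loci and windows used X bins at least 1 Mb from the deletion. Those for partner windows with the X chromosome and with each other used the read pairs of the windows with other chromosomes, as given above. Gene-dense bins were the 32.2% of autosomal bins with the most protein-coding gene starts within 500 kb. Compartments were signed by gene density. The genes named are the 6 members, 6 X loci and the genes in the 5 autosomal bins with the most Firre read pairs in each matrix, of which some are not reported here. The rule for the members uses no value of the matrices, but members and lists were chosen with an earlier analysis of both matrices known, and the repeat was looked for after the motif search gave no match. Alternatives are given in the closing section. Tools were Python 3.11.15, numpy 2.4.6, scipy 1.17.1, pandas 2.3.3 and matplotlib 3.10.9.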

Additional observations from a re-analysis of the deposited data

How the results depend on the processing

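Of 64 alternative values, 52 stayed within the counting interval of the main value, 10 moved outside it and 2 reversed. Some of the 52 lay on the other side of 1 or of 0 from the main value. Partner contacts of Firre in WT, for example, had 0.933 and 0.873 with wider windows against 2.37. The main interval there was 0.286 to 8.54, so staying within it says little. Read pairs of bin 2 with autosomes, against like bins, had 0.651 on corrected values in WT. In the KO-labelled matrix they had 1.29 with like bins within 20%, 1.12 over all 3 bins, 1.08 on corrected values and 1.46 with like bins matched on X chromosome read pairs, the last added after seeing the data. The ratio of the matrices had 1.30 over all 3 bins and 1.59 against X bins with repeated sequence. Contacts with partner gene bodies alone had 0.0 in both matrices, against 2.37 and 2.94, where fewer than 1 read pair was expected. Partner windows with the X chromosome in the KO-labelled matrix had 0.676 for gene bodies, 0.803 with 1 Mb on each side and 0.681 against the median window of the chromosome, also added later. The cause was not tested. The share of Firre contacts in compartment A there had a difference of -0.90 for bin 2, where the like bins of all 3 bins together are mostly those of bin 1. The alternative without 5 Mb at each chromosome end counted from the start of the sequence, since mm9 autosomes open with a gap.

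No paired analysis was possible because each group is 1 pooled matrix. Depth limits the partner contacts, since 0.846 and 2.04 read pairs were expected. The first eigenvector correlated with gene density by 0.342 to 0.682 across chromosomes in WT but by 0.006 (chromosome 13) to 0.535 in the KO-labelled matrix, so compartments there are less certain. With the compartments of WT, the difference in compartment A was 0.897 percentage points.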
